A study of Mus musculus with 8 samples.

Results

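Imprinted genes were followed in whole embryonic kidneys of mice in which Mdm4 had been removed from the ureteric lineage. The 38 genes were chosen by name, and their probes were found through the RefSeq accession carried by each probe. All 38 were on the array, with 68 probes, among 22911 genes that could be named in this way. After the filter on dim probes 35 of them were tested, within a fit over 16013 genes. The remaining 3 (Nap1l5, Rasgrf1 and Rtl1) were well above background in at most 5 of the 8 mutant channels and 3 of the 8 wild-type channels, and they have no ratio here. By general knowledge of the mouse, 15 members are expressed from the maternal allele and 21 from the paternal allele, while for Gnas and Blcap the allele depends on the transcript. The arrays measured the total transcript of both alleles, so none of the values shows which allele a transcript came from.

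The kidneys were taken at embryonic day 14.5. Mutant kidneys carried a conditional deletion of Mdm4, which encodes an inhibitor of the tumour suppressor p53. Cre came from a Hoxb7 transgene, whose activity lies in the ureteric bud and the collecting ducts that grow from it, so that stroma and nephron progenitors in the same organ keep the gene. The controls are labelled only as wild type, and the sources used here do not say whether they carried the Cre transgene or a conditional allele, or how many embryos gave an RNA. There were 4 pairs of 1 wild-type and 1 mutant RNA (n = 4 pairs), each hybridised on 2 arrays with exchanged dyes. Pair numbers have no order. The p-values rest on how far these pairs differ among themselves, and part of that may be technical. Unless another quantity is named, values are mutant over wild type on the log2 scale, errors are standard errors from limma's fit, and the 4 values of a gene are given in the order of pairs 1 to 4.

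Imprinted genes are expressed mainly from 1 parental copy, because methylation laid down in the egg or the sperm marks a control region and silences genes on 1 chromosome. They lie in clusters that mix genes of both alleles, and in several clusters a long noncoding RNA silences its neighbours. Many act on growth of the embryo and placenta: paternally expressed genes such as Igf2 tend to promote it, and maternally expressed ones such as Cdkn1c, Grb10, Igf2r and Phlda2 tend to limit it. In the kidney Cdkn1c, which encodes an inhibitor of cyclin-dependent kinases, is needed for normal growth of the medulla. Plagl1, Peg3, Ndn and Meg3 have been linked to p53 activity in cultured cells.

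The promoters of 4 members are shown because the results below set neighbours of 1 cluster side by side: Dlk1 with Meg3, and Mest with Copg2. Each window lies mostly upstream of a start in RefSeq's annotation and ends shortly after it, reads 5′ to 3′ along the gene, and has its CG dinucleotides, which DNA methylation acts on, in capitals. On GRCm38.p6 they lie at chr12:109452573-109452872 (plus strand) for Dlk1, chr12:109540746-109541045 (plus strand) for Meg3, chr6:30737800-30738099 (plus strand) for Mest and chr6:30896745-30897044 (minus strand) for Copg2. For Meg3 and Mest, with 2 and 3 listed windows, the window with the most CG is shown.
Dlk1: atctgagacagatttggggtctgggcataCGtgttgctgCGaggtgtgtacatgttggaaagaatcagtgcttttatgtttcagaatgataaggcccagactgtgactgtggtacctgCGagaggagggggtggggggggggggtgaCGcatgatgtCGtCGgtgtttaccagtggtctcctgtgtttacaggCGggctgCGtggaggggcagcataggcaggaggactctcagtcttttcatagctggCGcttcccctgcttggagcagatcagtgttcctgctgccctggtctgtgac
Meg3: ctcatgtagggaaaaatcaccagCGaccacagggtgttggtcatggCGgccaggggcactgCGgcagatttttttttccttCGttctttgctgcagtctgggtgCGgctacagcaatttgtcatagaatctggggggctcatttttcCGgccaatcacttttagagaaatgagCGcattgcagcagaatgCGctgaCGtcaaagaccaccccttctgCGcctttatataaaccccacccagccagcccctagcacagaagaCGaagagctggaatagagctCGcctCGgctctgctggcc
Mest: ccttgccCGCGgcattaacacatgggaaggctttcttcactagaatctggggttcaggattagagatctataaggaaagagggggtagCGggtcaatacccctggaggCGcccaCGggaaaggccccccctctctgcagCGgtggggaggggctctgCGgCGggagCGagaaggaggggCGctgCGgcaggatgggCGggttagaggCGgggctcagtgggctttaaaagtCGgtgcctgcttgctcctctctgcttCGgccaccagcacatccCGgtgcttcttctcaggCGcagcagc
Copg2: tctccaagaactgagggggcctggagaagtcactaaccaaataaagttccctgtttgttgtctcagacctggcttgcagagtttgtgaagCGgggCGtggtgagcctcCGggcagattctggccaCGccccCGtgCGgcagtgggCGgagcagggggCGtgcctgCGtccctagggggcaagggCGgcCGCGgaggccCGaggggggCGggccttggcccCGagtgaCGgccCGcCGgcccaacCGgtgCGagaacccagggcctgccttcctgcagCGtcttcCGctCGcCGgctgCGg
The windows hold 9 CG for Dlk1, 13 for Meg3, 17 for Mest and 25 for Copg2. Windows of 1 chromosome were left out before any counting, so that members on it have no window here. Of the 32851 promoter windows counted, 45.8%, 37.9%, 31.4% and 18.4%, in the same order, hold at least as many. Among them were RefSeq windows of 31 of the 38 members. With the richest window of each gene, the median was 17 CG over these 31 genes, against 8 over the 27025 genes counted. It was 22.5 over 12 maternally expressed and 13 over 17 paternally expressed members. Since p53 is what Mdm4 restrains, the windows were also searched for the consensus of a p53 half-site, which reads alike on both strands. It occurred in 3 of the 43 member windows (6.98%), those of Snrpn, Magel2 and Zrsr1, against 8.36% of all windows counted. The paired genes Peg3 and Usp29 start from windows that share 263 bases on opposite strands.

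Each array held 62976 spots, of which 57.9% to 67.1% per channel were well above background, and the number of arrays limits the precision. The kidney markers Pax2, Six2, Wt1, Foxd1, Lhx1 and Ret were well above background in all 16 channels. Mdm4 itself was measured by 4 probes, whose place relative to the deleted part was not analysed here. The brightest had a log2 signal of 9.02, 8.96, 9.13 and 8.99 in wild type and 8.99, 8.90, 8.86 and 8.63 in the mutant (mean ratio -0.18 ± 0.075, limma adjusted p = 0.471), and the other probes had mean ratios of -0.14 to -0.098. Over all 16013 genes limma called 0 at an adjusted p of 0.05, with 1699 at an unadjusted p under 0.05. When the 8 arrays were fitted together with the replicate block and a term for the dye it called 45, and with median centring in place of loess 42. None of those was an imprinted member: 0 of 35 were called in that block fit, with median centring, and under every other setting tried.

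Most imprinted genes differed little between mutant and wild-type kidneys. In RNA of whole kidneys, fewer cells of a type and less RNA per cell cannot be told apart. The mean log2 ratio of 27 of the 35 lay within 0.2 of 0 (77.1%), as did 88.1% of all genes tested, and the members' adjusted p ran from 0.424 to 0.987 by limma. At an unadjusted limma p under 0.05 there were 7 of 35 members, against 10.6% of all genes. Of these, 4 (Dlk1, Cdkn1c, Mest and Impact) had higher values in the mutant, against a background of 7.01%, and 3 (Kcnq1, Rian and Copg2) lower ones, against 3.60%. A mean 0.5 or more from 0 was reached by Dlk1 and Copg2 (5.71% of the members, background 1.14%). The same sign in all 4 pairs was found for 6 members (17.1%, background 19.9%). Cdkn1c, Mest, Sgce, Impact and Ube3a were the 5 higher ones (background 12.1%) and Copg2 the lower one (background 7.84%). On all 8 arrays Mest and Impact were higher (5.71%, background 3.35%) and 0 members were lower (background 1.31%), where 4.65% of all genes had 1 sign throughout. The dye orientations gave opposite signs for 11 of the 35 members, and for 51.3% of all genes.

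The medians of the allele classes lay close together. The median log2 ratio was 0.018 over the 15 maternally expressed genes and 0.051 over the 18 paternally expressed genes tested, against 0.010 over all genes. The maternal medians were 0.039, -0.040, 0.015 and 0.12 in pairs 1 to 4, and the paternal medians were 0.11, 0.024, 0.00016 and 0.073. The maternal median minus the paternal one was -0.069, -0.064, 0.015 and 0.043 (mean -0.019 ± 0.056, SD, n = 4), so that it was below 0 in 2 pairs and above 0 in the other two. For 9 members the imprint is known mainly from placenta, brain or other particular tissues. They are Ascl2, Zim1, Gatm, Asb4, Ube3a, Commd1 and Copg2 of the maternal class, and Usp29 and the untested Rasgrf1 of the paternal one. Without them the difference of the medians over the mean ratios was -0.064, and with them -0.032. Leaving them out thus mostly shrinks the maternal class. Of the maternally expressed genes 8 were higher and 7 lower, and of the paternally expressed ones 12 were higher and 6 lower, where 53.9% of all genes were higher and 46.1% lower. With median centring, which moves the median of all genes from 0.010 to 0.14, 27 of all 35 members were higher, against 22 with loess. How many of all genes were higher with median centring was not counted. Single genes spread far more than the class medians, as the plot of both classes by pair shows.

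**Figure D1:**
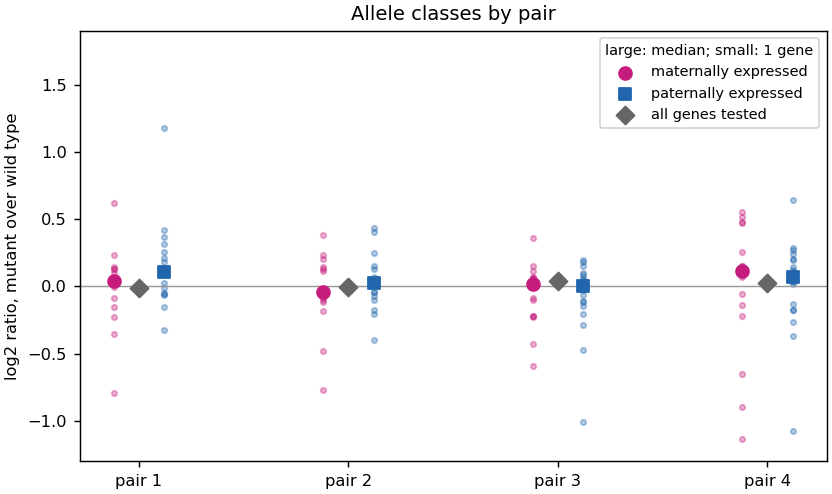
Log2 ratio of mutant over wild type (vertical axis) in each of the 4 pairs (horizontal axis). Large symbols are the medians over 15 maternally expressed genes, 18 paternally expressed genes and all 16013 genes tested, and small points are single genes. The class medians stay between -0.040 and 0.12 in every pair.

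Among the maternally expressed restraints on growth, Cdkn1c stood apart by its evenness. Its normalised log2 signal was 17.22, 17.13, 17.28 and 17.25 in the wild-type RNAs and 17.46, 17.37, 17.35 and 17.40 in the mutant RNAs. Every mutant value lay above every wild-type value, which held for 1 of the 35 members and for 4.82% of all genes in either direction. The ratio was 0.24, 0.23, 0.062 and 0.15 (mean 0.17 ± 0.059, limma adjusted p = 0.440), a 1.13-fold difference. It was larger with mutant RNA in Cy5 (0.28) than in Cy3 (0.062), and it stayed above 0 under all 14 alternative settings (0.062 to 0.33). Some of these settings, such as other filters on dim probes, leave a member's mean as it is.

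The other growth-limiting genes varied around 0. Igf2r, whose product clears insulin-like growth factor 2 from the cell surface, was at 0.099, 0.38, -0.089 and 0.48 (mean 0.22 ± 0.10), but its 2 dye orientations gave 0.52 (mutant in Cy5) and -0.090 (mutant in Cy3). Grb10, an adaptor that damps insulin and IGF receptor signalling, was at -0.22, -0.10, -0.23 and 0.073 (mean -0.12 ± 0.071), and at 0.054 with median centring. Its dimmer probe was at 0.18, 0.12, -0.61 and -0.055, with the opposite sign in pairs 1, 2 and 4. Phlda2, a growth limiter best known from the placenta, was at 0.018 ± 0.071. For none of these 3 genes did the signals of the 2 genotypes separate. H19, a noncoding RNA that carries the microRNA miR-675, had the brightest probe of all members. Its ratios were 0.13, 0.12, -0.22 and -0.22, 2 pairs above and 2 below 0, and its mean of -0.049 ± 0.085 became 0.11 with median centring.

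Kcnq1 and Copg2 were the maternally expressed genes with the lowest means. Kcnq1 encodes the pore subunit of a voltage-gated potassium channel, and its signal was 8.97, 9.11, 8.48 and 8.71 in wild type and 8.18, 8.63, 8.54 and 8.05 in the mutant. The mutant value was lower than its partner in 3 pairs and close to it in pair 3. The ratios of -0.79, -0.48, 0.065 and -0.65 gave a mean of -0.46 ± 0.14 (limma adjusted p = 0.424; 1.38-fold lower, 95% interval -0.80 to -0.12 on the log2 scale). A second probe, for another transcript model, gave -0.75, -0.40, 0.12 and -0.59 and so the same pattern, while a dimmer probe stayed at -0.00085 and the last one was well above background in 0 of 16 channels. The mean was below 0 under all 14 alternative settings (-0.64 to -0.22).

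Copg2, which encodes a subunit of the coatomer that coats transport vesicles, had a signal of 11.66, 11.75, 11.14 and 11.37 in wild type and 11.65, 10.98, 11.03 and 10.24 in the mutant. The mutant values of pairs 2 and 4 lay below their partners. Pairs 1 and 3 differed little on average, but their 2 arrays had opposite signs. With mutant RNA in Cy5 and in Cy3 the ratios were 0.26 and -0.28 in pair 1, and 0.39 and -0.60 in pair 3. The ratios were -0.0060, -0.77, -0.10 and -1.14 (mean -0.50 ± 0.19, limma adjusted p = 0.453). The 2 dye orientations gave -0.18 with mutant RNA in Cy5 and -0.82 in Cy3. Its dimmer probe gave a smaller mean of -0.17, with another order of the pairs (0.024, -0.044, -0.36 and -0.31). Under the alternative settings the mean ran from -0.82 to -0.18.

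The remaining maternally expressed coding genes had means from -0.090 to 0.21. Ube3a, a ubiquitin ligase gene imprinted in neurons, was at 0.14, 0.13, 0.015 and 0.55 (mean 0.21 ± 0.096), above 0 in every pair but mostly through pair 4. Its dimmer probe was at -0.065, 0.13, 0.28 and 0.20, below 0 in pair 1 and highest in pair 3. Gatm, the gene of the first enzyme of creatine synthesis, was at -0.088, -0.030, 0.36 and 0.52 (mean 0.19 ± 0.11), while its dimmer probe was above 0 in every pair, at 0.088, 0.25, 0.29 and 0.14. The zinc finger gene Zim1 was at 0.091, the trophoblast transcription factor gene Ascl2 at 0.035, Commd1, a regulator of copper handling, at -0.036, and Asb4, a substrate adaptor of a ubiquitin ligase, at -0.090. With median centring Commd1 and Asb4 turned to 0.13 and 0.081. These 4 genes had limma adjusted p of 0.703 or more.

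**Figure D2:**
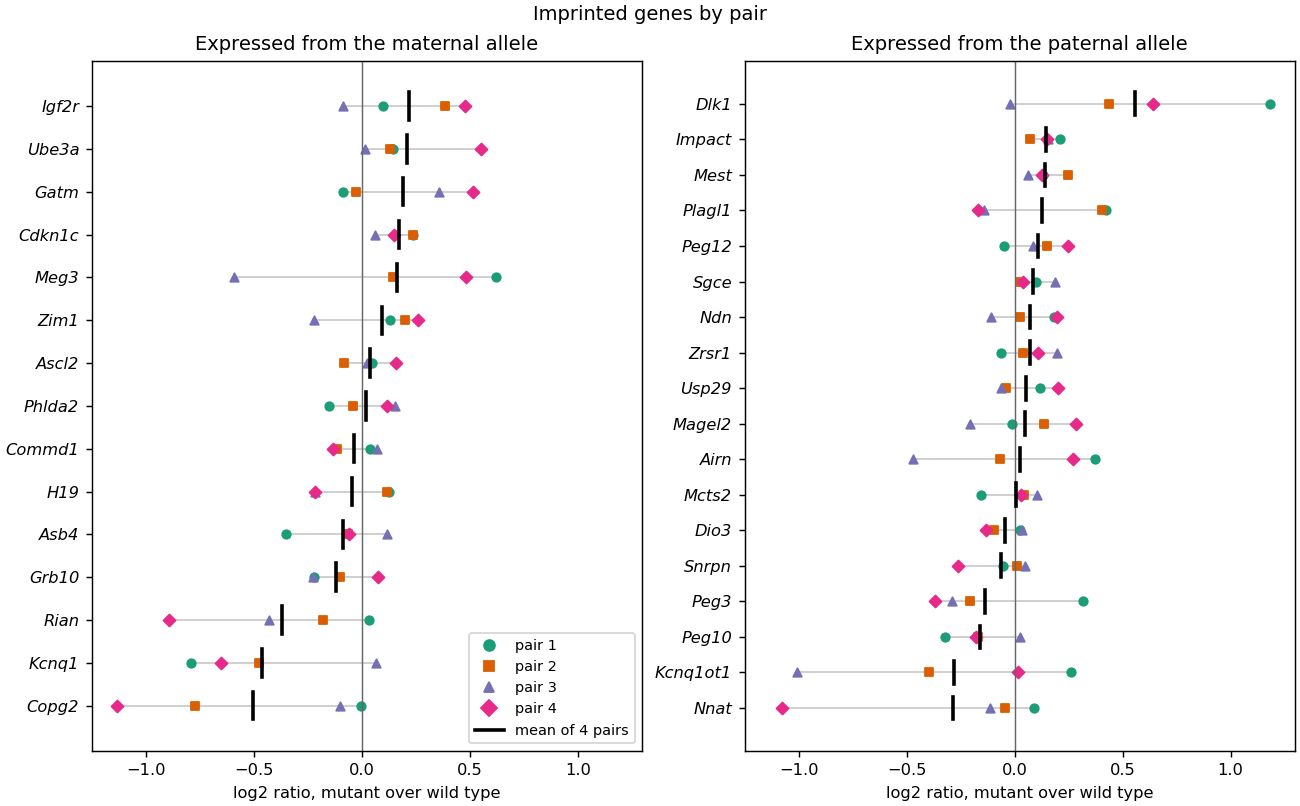
Log2 ratio of mutant over wild type (horizontal axis) of the maternally expressed (left) and paternally expressed (right) genes tested, 1 row per gene, ordered by the mean. Coloured symbols are the 4 pairs and the black bar is their mean. Dlk1 at the top and Copg2 and Kcnq1 at the bottom have the means farthest from 0, and their pairs differ widely, while Cdkn1c, Mest and Impact lie close together just above 0.

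Dlk1 had the largest mean among the paternally expressed genes. It encodes a membrane protein related to Notch ligands that holds back differentiation of mesenchymal cells. Its signal was 14.50, 14.59, 14.90 and 14.32 in wild type and 15.68, 15.02, 14.88 and 14.96 in the mutant. The mutant value was higher than its partner in pairs 1, 2 and 4 and level with it in pair 3, where the wild-type signal was the highest of the 4. The ratios of 1.18, 0.43, -0.024 and 0.64 gave a mean of 0.56 ± 0.18 (limma adjusted p = 0.425), which is 1.47-fold (95% interval 0.12 to 1.00 on the log2 scale). Its other probe repeated the order of the pairs, with 1.13, 0.21, -0.27 and 0.29, and the mean stayed above 0 under all 14 alternative settings (0.27 to 0.75).

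Mest and Impact showed small and even differences. For Mest, a gene of mesoderm that encodes a hydrolase-like protein, the signal was 15.21, 15.07, 15.13 and 15.23 in wild type and 15.35, 15.31, 15.19 and 15.35 in the mutant. The ratios of 0.13, 0.25, 0.061 and 0.13 were above 0 on all 8 arrays (mean 0.14 ± 0.058, limma adjusted p = 0.470). Its dimmer probe, however, gave 0.30, 0.18, -0.37 and -0.39 (mean -0.070), with opposite signs in pairs 3 and 4. Impact encodes an inhibitor of the kinase Gcn2 and so touches the response to amino acid shortage. Its ratios were 0.21, 0.069, 0.15 and 0.15 (mean 0.14 ± 0.055, limma adjusted p = 0.453), above 0 on all 8 arrays, a 1.11-fold difference. Its signals were 12.08, 12.53, 12.36 and 12.39 in wild type and 12.29, 12.60, 12.51 and 12.54 in the mutant, and the RNAs of pair 1 were the lowest of both genotypes.

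Paternally expressed genes linked to growth arrest and p53 had both signs. Plagl1, a zinc finger transcription factor gene, was at 0.42, 0.41, -0.14 and -0.17 (mean 0.13 ± 0.13), above 0 in pairs 1 and 2 and below it in pairs 3 and 4. Its mean had opposite signs in the dye orientations (-0.15 in Cy5, 0.41 in Cy3) and on its dimmer probe (-0.11). Peg3, a large zinc finger gene, was at 0.31, -0.21, -0.29 and -0.37, and its mean of -0.14 ± 0.12 also split by dye, with -0.56 in Cy5 and 0.29 in Cy3, and was 0.024 with median centring. Ndn and Magel2, both of the MAGE family, were at 0.072 ± 0.072 and 0.049 ± 0.089. On Cy3-mutant arrays alone Ndn was at -0.12.

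The other paternally expressed coding genes stayed close to 0 in most pairs. Nnat, a small membrane protein gene of the endoplasmic reticulum, was at 0.091, -0.044, -0.12 and -1.08 (mean -0.29 ± 0.19). Its signal was 12.88, 12.94, 12.93 and 12.90 in wild type but 12.98, 12.90, 12.82 and 11.82 in the mutant, so that 1 mutant RNA, that of pair 4, was low and the others were not. Peg10, a gene derived from a retrotransposon, was at -0.32, -0.17, 0.025 and -0.18 (mean -0.16 ± 0.071), below 0 in 3 pairs. Its dimmer probe was below 0 in every pair, at -0.060, -0.11, -0.21 and -0.24. Sgce, which encodes a sarcoglycan of the same cluster, was at 0.097, 0.026, 0.18 and 0.038 (mean 0.086 ± 0.057), above 0 in all 4. So was its dimmer probe, at 0.37, 0.13, 0.23 and 0.024. Peg12, a Wnt pathway gene of the Frat family, was at 0.11, the splicing gene Zrsr1 at 0.069, the deubiquitinase gene Usp29 at 0.053 and the retrogene Mcts2 at 0.0038. Dio3, whose product inactivates thyroid hormone, was at -0.044 and the splicing gene Snrpn at -0.065, or 0.10 with median centring. Their limma adjusted p lay between 0.489 and 0.987. Of the members with both kinds of transcript, Gnas, which encodes the stimulatory G protein subunit, was at 0.14, 0.25, 0.13 and -0.035 (mean 0.12 ± 0.065) and Blcap, whose intron holds Nnat, at 0.052 ± 0.070.

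**Figure D3:**
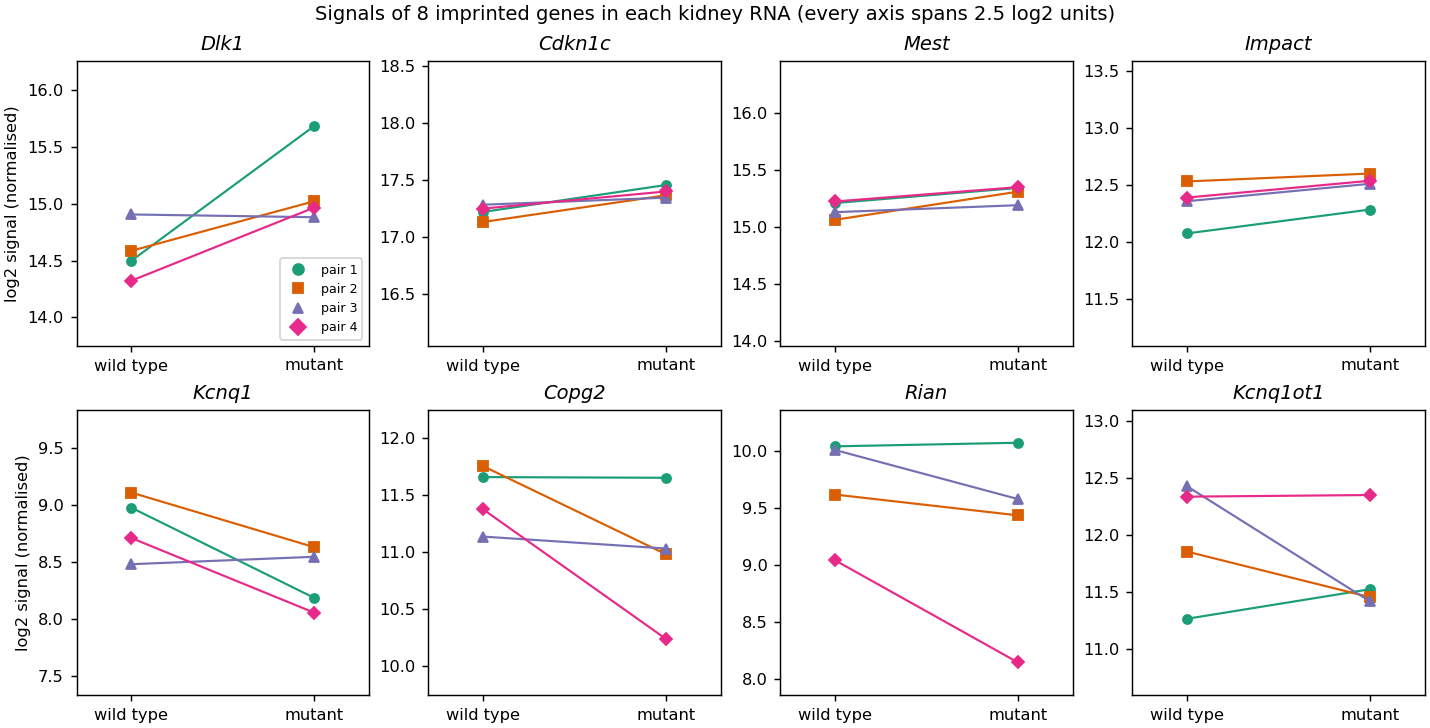
Normalised log2 signal (vertical axis, spanning 2.5 units in every panel) of 8 imprinted genes in the wild-type and the mutant RNA of each pair, joined by a line. Cdkn1c is a little higher in the mutant of each pair, without overlap between the genotypes, Dlk1 and Kcnq1 differ in opposite directions in 3 pairs and hardly in pair 3, and Rian and Kcnq1ot1 vary between wild-type RNAs by 1.00 and 1.16.

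Neighbours are given side by side, and the differences between them were not tested. In the Mest cluster the paternally expressed Mest had a mean of 0.14 and the maternally expressed Copg2, which overlaps it on the opposite strand, -0.50. Copg2 is among the members whose imprint is known mainly from particular tissues. In pairs 2 and 4, where Copg2 was at -0.77 and -1.14, Mest was at 0.25 and 0.13 by the brightest probe of each. By their dimmer probes Copg2 was at -0.044 and -0.31 in these pairs, and Mest at 0.18 and -0.39. In the Kcnq1 cluster the growth restraint Cdkn1c was above 0 in every pair and Kcnq1 below 0 in 3, with Phlda2 and Ascl2 near 0. The paternally expressed noncoding RNA Kcnq1ot1 of this cluster was at 0.26, -0.40, -1.01 and 0.014 (mean -0.28 ± 0.20). In the cluster of Dlk1 and Dio3 the paternally expressed Dlk1 was at 0.56, Dio3 at -0.044, and the maternally expressed noncoding RNAs Meg3 and Rian at 0.16 and -0.37. Dlk1 and Meg3, which are expressed from opposite alleles, had the same sign in every pair by the brightest probe of each. In the Igf2r cluster Igf2r was at 0.22 ± 0.10 and the antisense RNA Airn at 0.025 ± 0.14, which lie within their errors of each other. In the Peg3 cluster Peg3 was at -0.14, Usp29 at 0.053 and Zim1 at 0.091. The 5 genes of the Prader-Willi and Angelman cluster ranged from -0.065 (Snrpn) to 0.21 (Ube3a), with Magel2, Ndn and Peg12 at 0.049, 0.072 and 0.11 between them. Where a probe lies relative to an overlapping neighbour was not analysed here.

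Long noncoding members varied more between pairs than most coding ones. These RNAs, H19, Meg3, Rian, Kcnq1ot1 and Airn, act in the nucleus or carry small RNAs. They were grouped after their values were seen. The SD over the 4 pairs had a median of 0.40 over these 5, against 0.14 over 30 coding members, 0.14 over all genes, and 0.19 over 188 RefSeq noncoding genes with a mean log2 signal of 9 or more. Kcnq1ot1, which silences the Kcnq1 cluster on the paternal copy, was at 0.26, -0.40, -1.01 and 0.014, and its SD of 0.55 lay at percentile 97.7 of all genes. Meg3 was at 0.62, 0.14, -0.59 and 0.48 (percentile 97.6) and Airn, which silences Igf2r, at 0.37, -0.068, -0.47 and 0.27 (percentile 94.4). Rian lay at percentile 95, but H19, with an SD of 0.20, only at 71.2, level with the brighter noncoding genes. Among coding members Copg2, Nnat and Dlk1 had SDs as high, at percentiles 97.6, 97.5 and 97.1, whereas Impact, Sgce, Mest and Cdkn1c lay at 8.49, 14.6, 16.8 and 19.5. By the brightest probe of each, all 5 noncoding members were below 0 in pair 3 and above 0 in pair 1. Over the 188 brighter noncoding genes the median was -0.062 in pair 3 and -0.0043 in pair 1.

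Rian, a host of small nucleolar RNAs and microRNAs, differed from the others in pair 4. Its signal was 10.04, 9.62, 10.01 and 9.04 in wild type and 10.08, 9.44, 9.58 and 8.15 in the mutant, and its ratios were 0.032, -0.18, -0.43 and -0.90 (mean -0.37 ± 0.15, limma adjusted p = 0.467). The wild-type RNA of pair 4 was the lowest wild-type value too. With mutant RNA in Cy5 the mean was -0.014 and in Cy3 -0.72. Pair 4 was below 0 in both orientations (-0.54 in Cy5 and -1.3 in Cy3), whereas the value of pair 3 averaged 0.44 and -1.3. Mirg, a further noncoding host of microRNAs from this cluster that is no member, was at 0.26, 0.34, -0.52 and -0.54.

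Probes of 1 noncoding gene did not always agree. For Kcnq1ot1 the 4 kept probes were all lowest in pair 3, from -1.10 to -0.55, but in pair 4 they ran from -0.12 to 0.72. For Meg3 the 4 probes were below 0 in pair 3 as well, from -1.10 to -0.23. In pair 4, 3 of them were above 0 (up to 0.60) and 1 was at -1.17, so that the means of the probes were 0.16, -0.28, -0.13 and 0.055. The second Airn probe, for another transcript, was at 0.38, 0.20, 0.28 and 0.14 and so above 0 in pair 3 too. It was dimmer, and its SD over the pairs was 0.10, against 0.38 for the brightest Airn probe. Among coding members the kept probes disagreed in sign for Mest and Plagl1, for Snrpn (-0.065, 0.0097 and -0.074) and for Gnas. The 4 kept Gnas probes had means of 0.12, 0.050, -0.080 and -0.0040, of which the first and second carry the same accession.

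**Figure D4:**
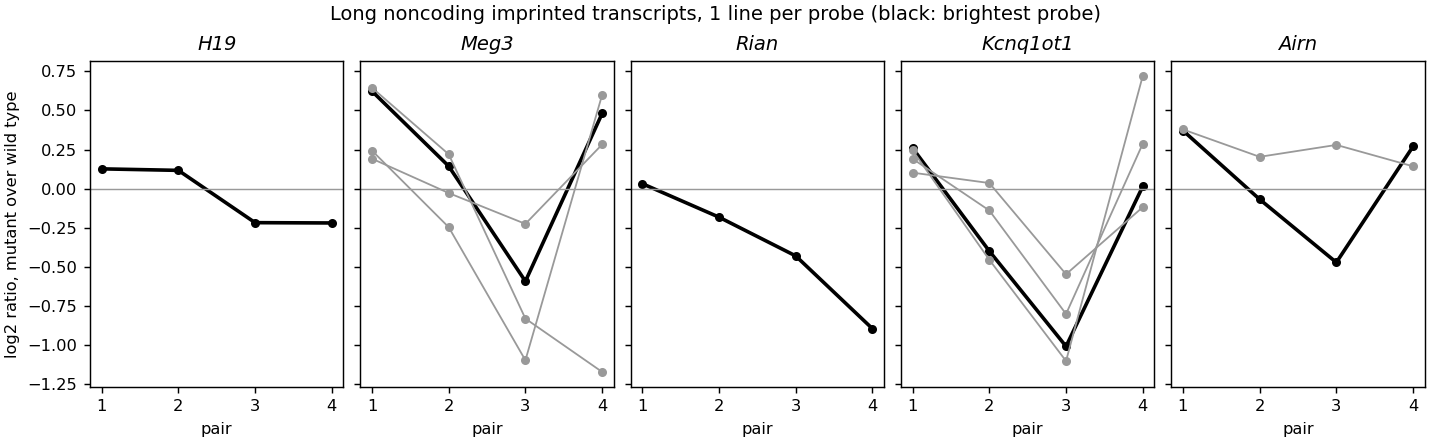
Log2 ratio of mutant over wild type (vertical axis) in pairs 1 to 4 (horizontal axis) for the 5 long noncoding imprinted genes, 1 line per kept probe, with the brightest in black. Lines only join the values of a probe, since pairs have no order. The Meg3 and Kcnq1ot1 probes are all below 0 in pair 3, and they spread widest in pair 4.

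Marker genes of several cell types had a pattern over the pairs partly like that of some members. The 14 ureteric bud and collecting duct markers, the lineage in which Cre is active, had a median of -0.33 and values of -0.59, -0.30, 0.046 and -0.54 in pairs 1 to 4. All 14 had a mean below 0, and their mean log2 signal ran from 11.92 to 12.32 in wild type and from 11.64 to 11.96 in the mutant. Kcnq1 was lower in the same 3 pairs and near 0 in pair 3. The 11 stroma markers had a median of 0.28, with 0.39, 0.22, 0.091 and 0.43 by pair, all 11 means above 0, and a mean log2 signal of 12.94 to 13.36 in wild type and 13.21 to 13.77 in the mutant. Dlk1, like these, was highest in pairs 1 and 4 and lowest in pair 3. The 8 macrophage markers, with medians of 0.45, 0.052, 0.21 and 0.40 by pair, were also highest in pairs 1 and 4, but lowest in pair 2. The part of these cell types in the ratios of Kcnq1 and Dlk1 was not tested.

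Tissues that lie next to the kidney and express Dlk1 or H19 strongly were checked in the same way. The adrenal cortex markers had a median of -0.085 (5 of 8 measured and all 5 below 0). Cyp11a1, Cyp11b1 and Hsd3b1 were not among the genes tested. Among the 5 was Cyp17a1, a steroidogenic enzyme gene, at -0.28, -0.45, -0.33 and -1.12. Liver markers were at -0.0049 (6 of 8 measured), with -0.038, -0.36, 0.39 and 0.14 by pair, and muscle markers at 0.046 (5 of 6 measured), with 0.42, -0.11, 0.28 and 0.054. The part of these tissues in the ratio of Dlk1 was not tested. Neural markers were at 0.027, macrophage markers at 0.28 (8 of 8 above 0), red blood cell markers at -0.0011, nephron progenitor markers at -0.094 and early nephron and podocyte markers at 0.24.

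Sex-linked transcripts differed between the 2 RNAs of every pair, and in pair 3 in the opposite direction. Averaged over the Y-linked genes Ddx3y, Eif2s3y and Kdm5d, the log2 ratio was 3.1, 1.53, -1.72 and 3.1 in pairs 1 to 4, so that pair 3 alone was below 0. Xist had the opposite signs, at -2.71, -0.23, 2.48 and -2.80. Within a pair, sex and genotype therefore cannot be told apart. With the Y-linked difference as a covariate Dlk1 was at 0.27, Kcnq1 at -0.22, Copg2 at -0.36, Cdkn1c at 0.13 and Kcnq1ot1 at -0.64. Meg3 and Airn turned to -0.19 and -0.22. Without pair 3 the means were 0.75 for Dlk1, -0.64 for Kcnq1, 0.42 for Meg3 and -0.042 for Kcnq1ot1. Without pair 1 Dlk1 was at 0.35. Without pair 4 Copg2 was at -0.29, Rian at -0.19 and Nnat at -0.023.

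**Figure D5:**
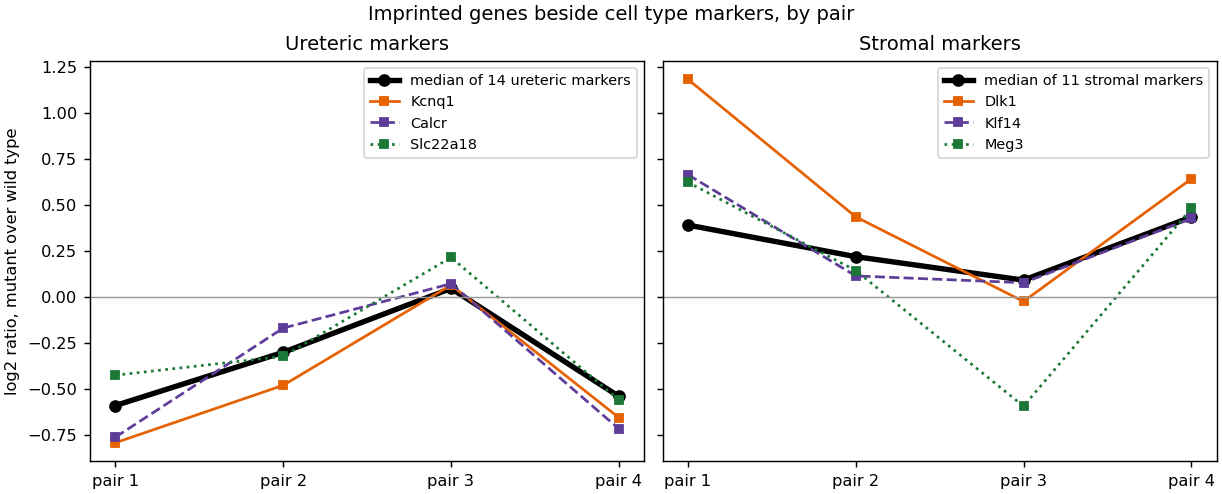
Log2 ratio of mutant over wild type (vertical axis) in pairs 1 to 4 (horizontal axis): the median of 14 ureteric markers with Kcnq1, Calcr and Slc22a18 (left), and the median of 11 stromal markers with Dlk1, Klf14 and Meg3 (right). Lines join the values of a gene, since pairs have no order. Calcr and Slc22a18 were chosen after their values were seen to follow Kcnq1, so that their likeness is no support. Klf14 and Meg3 were picked by hand too, so that any likeness to the stromal median is no support either. The ureteric median and Kcnq1 are below 0 in pairs 1, 2 and 4 and above 0 in pair 3.

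Imprinted genes outside the members were described in the same way, from lists that hold no member. Of 9 other paternally expressed genes tested 6 were higher and 3 lower (median 0.080), with 0 called by limma, 0 at an unadjusted p under 0.05 and 0 with the same sign in all pairs. Among them Igf2, the growth factor whose gene shares a control region with H19, was at 0.46, 0.19, -0.16 and -0.0028 (mean 0.12 ± 0.10). Of 19 other maternally expressed genes 9 were higher and 10 lower (median -0.0040), with 0 called by limma. At an unadjusted p under 0.05 there were 4 higher (background 7.01%) and 1 lower (background 3.60%), and the same counts, 4 higher (background 12.1%) and 1 lower (background 7.84%), had the same sign in all pairs. Those with the smallest p were Dcn, a matrix proteoglycan gene that is also among the stroma markers, at 0.46 ± 0.11, the organic cation transporter gene Slc22a3 at 0.21 ± 0.063, the tetraspanin gene Cd81 at 0.19 ± 0.057 and the transcription factor gene Klf14 at 0.32 ± 0.11 (limma adjusted p from 0.376 to 0.434). Chosen after their values were seen, the calcitonin receptor gene Calcr was at -0.76, -0.17, 0.072 and -0.72 and the transporter gene Slc22a18 at -0.42, -0.32, 0.21 and -0.56, which are lower in the pairs where Kcnq1 was lower.

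Genes that set or keep imprints were mostly near 0. Of 19 tested, 10 were higher and 9 lower (median 0.027), with 0 called by limma. The 2 at an unadjusted p under 0.05 stand beside 10.6% of all genes, so that their share is near the background. Of these, Arid4a, a chromatin gene, was at 0.11, 0.27, 0.24 and 0.33 and Uhrf1, which recruits the maintenance methyltransferase to newly copied DNA, at -0.25, -0.20, -0.33 and -0.072. Dnmt1, that methyltransferase, was at 0.080 ± 0.062, the corepressor gene Trim28 at -0.14 ± 0.066 and the insulator gene Ctcf at -0.016 ± 0.057. Zfp57, whose zinc finger protein guards imprints against demethylation, was at 0.90, -0.14, -1.78 and 0.67, so that it varied more between pairs than any member tested and was lowest in pair 3.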

How the data were processed

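Median spot and background intensities of both channels were taken from the deposited scanner files, which the authors made with Agilent Feature Extraction 10.7.3.1 per the file headers (8.5.1.1 per the submitters' processing notes). The log10 ratios in the deposited table are Cy5 over Cy3, were not turned for the dye swap, and differ from the scanner files by at most 0.0050. Labelling started from 100 ng of total RNA, per the labels' protocols. In limma 3.58.1 (R 4.3.3), normexp with offset 50 and loess were applied, with control (3671 per array) and outlier spots (379 to 461) left out. Signals per genotype were further scaled by Aquantile. Probes well above background in at least 6 of 8 channels of a genotype were kept (34594 of 56605), and the brightest kept probe stood for a gene. Accessions were named through RefSeq's GRCm38.p6 table (32994 probes named, 23611 not). No gene coordinates are given, since the array design refers to another build.

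The dye-swapped arrays of a pair hold the same 2 RNAs, per the labels, and were averaged (n = 4). Their deviations correlated at 0.63 to 0.86 over 15997 genes, against at most 0.22 between pairs. Ratios were tested against 0 with lmFit and eBayes, two-sided, with Benjamini-Hochberg adjustment over all genes at 0.05. The members and lists were chosen with earlier results of these data known. Values in every pair were due, by rule, for members with an unadjusted p under 0.05, the same sign on 8 arrays or a mean of 0.5 or more from 0, for the 5 brightest, and for those with probes of opposite sign. Further members were added after their values were seen. Alternatives covered background, normalisation, filter, probe rule, dye orientation, replicate block, the deposited table, sex and leaving out each pair. On simulated ratios of 16013 genes limma recovered 38 of 61 changes of 0.50, 73 of 78 of 1.00 and 59 of 61 of 2.00, with 6 false calls. The noise was normal and independent between genes, with each gene's own SD over pairs, and the changed genes were drawn at random. Deviations shared by many genes of a pair were not simulated, and recovery was not counted for members with a wide spread.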

Additional observations from a re-analysis of the deposited data

How the results depend on the processing

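Of the 35 members tested, 15 kept their sign under all 14 alternatives tried for single genes, among them Dlk1, Cdkn1c, Mest, Impact, Kcnq1, Rian and Copg2, and 0 were called under any. How many of all genes kept their sign was not counted. The sign of members turned in the following cases, and the cause was not tested. With median centring the values were Asb4 0.081, Commd1 0.13, Grb10 0.054, H19 0.11, Peg3 0.024, Phlda2 -0.018 and Snrpn 0.10. With mutant RNA in Cy5 alone they were Ascl2 -0.0018, Gnas -0.075 and Plagl1 -0.15, and in Cy3 alone Airn -0.11, Blcap -0.012, Dio3 0.058, Igf2r -0.090, Mcts2 -0.15, Ndn -0.12, Peg3 0.29 and Phlda2 -0.071. With the sex difference as a covariate, which leaves 2 residual degrees of freedom, they were Airn -0.22, Asb4 0.0095, Blcap -0.035, Commd1 0.00020, Magel2 -0.058, Meg3 -0.19, Ndn -0.021, Usp29 -0.017 and Zim1 -0.039. With 1 pair left out the ranges were Airn -0.090 to 0.19, Mcts2 -0.029 to 0.057, H19 -0.11 to 0.0084, Phlda2 -0.026 to 0.076, Ascl2 -0.0054 to 0.075, Magel2 -0.029 to 0.13 and Snrpn -0.10 to 0.00084. Agilent's processed signals, the deposited ratios and the median of probes turned 0 signs. Other filters and the replicate block could not turn any, since they leave the mean ratio of a tested member as it is. The median of probes can only move members with several kept probes.

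Limma called 42 genes with median centring and 45 with the replicate block, against 0. With median centring followed by centring of the pairs (chosen after seeing the data) it called 0. Members with the same sign in all values numbered 12 with median centring, 11 with mutant RNA in Cy5 alone and 10 in Cy3 alone, against 6, and 7 to 15 with 1 pair left out (12 without pair 1 and 15 without pair 3), where fewer values have to agree. The replicate block has no values per pair and gives no such count. Over all genes these counts were not made under the alternative settings, so they are no result about the members. With median centring the maternal median was 0.11 and the paternal one 0.18, where all genes were at 0.14. The paternal median was -0.0086 with the sex covariate and 0.0018 to 0.073 with 1 pair left out. The maternal minus paternal median was -0.090 with mutant RNA in Cy3 alone. Signal over background limits Nap1l5, Rasgrf1 and Rtl1, which have no ratio.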

Other observations

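Nap1l4, a nucleosome assembly gene beside Phlda2, had values of -0.017, -0.18, -0.048 and -1.70 in pairs 1 to 4, with pair 4 far from the rest as for Nnat (chosen after its values were seen). The paraoxonase gene Pon3, a maternally expressed neighbour of Peg10, was at 0.12, -0.0079, 0.28 and 0.27, and Zdbf2, a paternally expressed gene, at 0.27, 0.29, -0.068 and 0.19, while Peg10 was at -0.32, -0.17, 0.025 and -0.18. In the imprint upkeep list Dnmt3l, the cofactor of methyltransferases in germ cells, was at 0.027, 0.042, 0.20 and 0.25. Dppa3, Slc22a2, Kcnk9 and Tfpi2 were not among the genes tested.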
